A study of Arabidopsis thaliana with 19 samples.

Results

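The genes described here are 8 regulators of embryogenesis and seed maturation in Arabidopsis thaliana, chosen by locus identifier out of 27444 nuclear protein-coding genes. They are LEC1 (AT1G21970), L1L (AT5G47670, also NF-YB6), LEC2 (AT1G28300), FUS3 (AT3G26790), ABI3 (AT3G24650), ABI4 (AT2G40220), AGL15 (AT5G13790) and DOG1 (AT5G45830). All 8 were found in the gene table. Their chromatin was examined in sperm, in 8 deposited ChIP-seq peak lists, a narrow and a broad one for each of the 4 histone H3 marks H3K27me3, H3K27me1, H3K27ac and H3K4me3.

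LEC1, LEC2, FUS3 and ABI3 are the master regulators of the seed programme. LEC1 and L1L are histone-fold subunits of the CCAAT-binding factor NF-Y, and LEC2, FUS3 and ABI3 carry a plant-specific B3 DNA-binding domain and switch on genes for storage proteins, oil bodies and desiccation tolerance. ABI4 is an AP2-type factor of abscisic acid signalling, AGL15 is a MADS-domain factor that accumulates in embryos, and DOG1 sets the depth of seed dormancy. After germination these genes are silenced by Polycomb repressive complex 2, which deposits H3K27me3, with the help of the B3 proteins VAL1 and VAL2 and the chromatin remodeller PKL. H3K4me3 and H3K27ac mark transcribed genes, and H3K27me1 is best known from heterochromatin. Sperm delivers the paternal copy of these genes to the zygote, where the embryo begins.

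The nuclei came from pollen of ecotype Col-0, listed as wild type, and were sorted by flow cytometry from a line that carries the sperm histone H3.10 fused to Clover under its own HTR10 promoter. Every sample, inputs included, carried that reporter, and the chromatin was cut to mononucleosomes with micrococcal nuclease. H3K27me3 and H3K27me1 had 2 immunoprecipitations each, H3K27ac and H3K4me3 had 3 each, and these IPs shared 3 input preparations. A further 3 immunoprecipitations of H3.10 with 3 inputs of their own were not used here. The replicates of a mark were pooled into its lists, so values here carry no error between replicates, the depth is unknown, and no order of genes or marks could be tested. Of 6 sperm genes checked (DUO1, HAP2, GEX2, GEX1, HTR10 and DMP9), 6 had H3K4me3 and 6 had H3K27ac. Of 5 genes of the pollen vegetative cell, 3 had H3K4me3 and 3 had H3K27ac, and of 3 leaf genes 2 had H3K4me3 and 1 had H3K27ac. With 84.0% of all genes under H3K4me3 and 69.1% under H3K27ac, neither mark by itself tells the cell types apart. In the broad list H3K27me3 lay on 1 of the 6 sperm genes (DMP9), against 5.24% of all genes. It lay there on 1 of the 5 vegetative cell genes (VGD1) and 0 of the 3 leaf genes. The narrow list had it on VGD1 and not on DMP9, against 1.76% of all genes.

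A gene was counted as marked when peaks of a list took up 150 bp or more of the window made of the gene and 1 kb on either side. The narrow lists were used for H3K4me3 and H3K27ac, and the broad lists for H3K27me1 and H3K27me3, with the other list of each mark given beside them. The spans of the 8 genes ran between 1339 and 3816 bp with a median of 2093 bp, near the median of 2078 bp of all genes. The annotation at hand gives spans without strand, exons or untranslated regions, so positions are given from the gene end of lower or higher coordinate. Peak coordinates are those of the authors on TAIR10.

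The 8 genes fell into several chromatin states in sperm. ABI3 and ABI4 carried H3K27me3 together with H3K4me3 and had no H3K27ac, and DOG1 carried H3K27me3 alone. LEC1 and FUS3 carried H3K4me3 and H3K27ac, a combination shared with 56.7% of all genes. LEC2 and AGL15 carried H3K27me1 beside these marks (7.01% of all genes), and L1L had H3K4me3 alone (13.6% of all genes). These states rest on the list used for each mark and include the 1 kb flanks. The H3K27ac peak counted for AGL15 and the narrow H3K4me3 peak counted for L1L lay wholly in neighbouring genes. The narrow H3K27me1 list marked FUS3, ABI3 and AGL15 and not LEC2. The narrow H3K27me3 list marked ABI3 and neither ABI4 nor DOG1. None of the broad H3K27me3 peaks at ABI3, ABI4 and DOG1 had a listed q below 0.05. The combination of ABI3 and ABI4 was found on 223 genes (0.813%), and H3K27me3 with no other mark, as at DOG1, on 170 genes (0.619%).

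**Figure D1:**
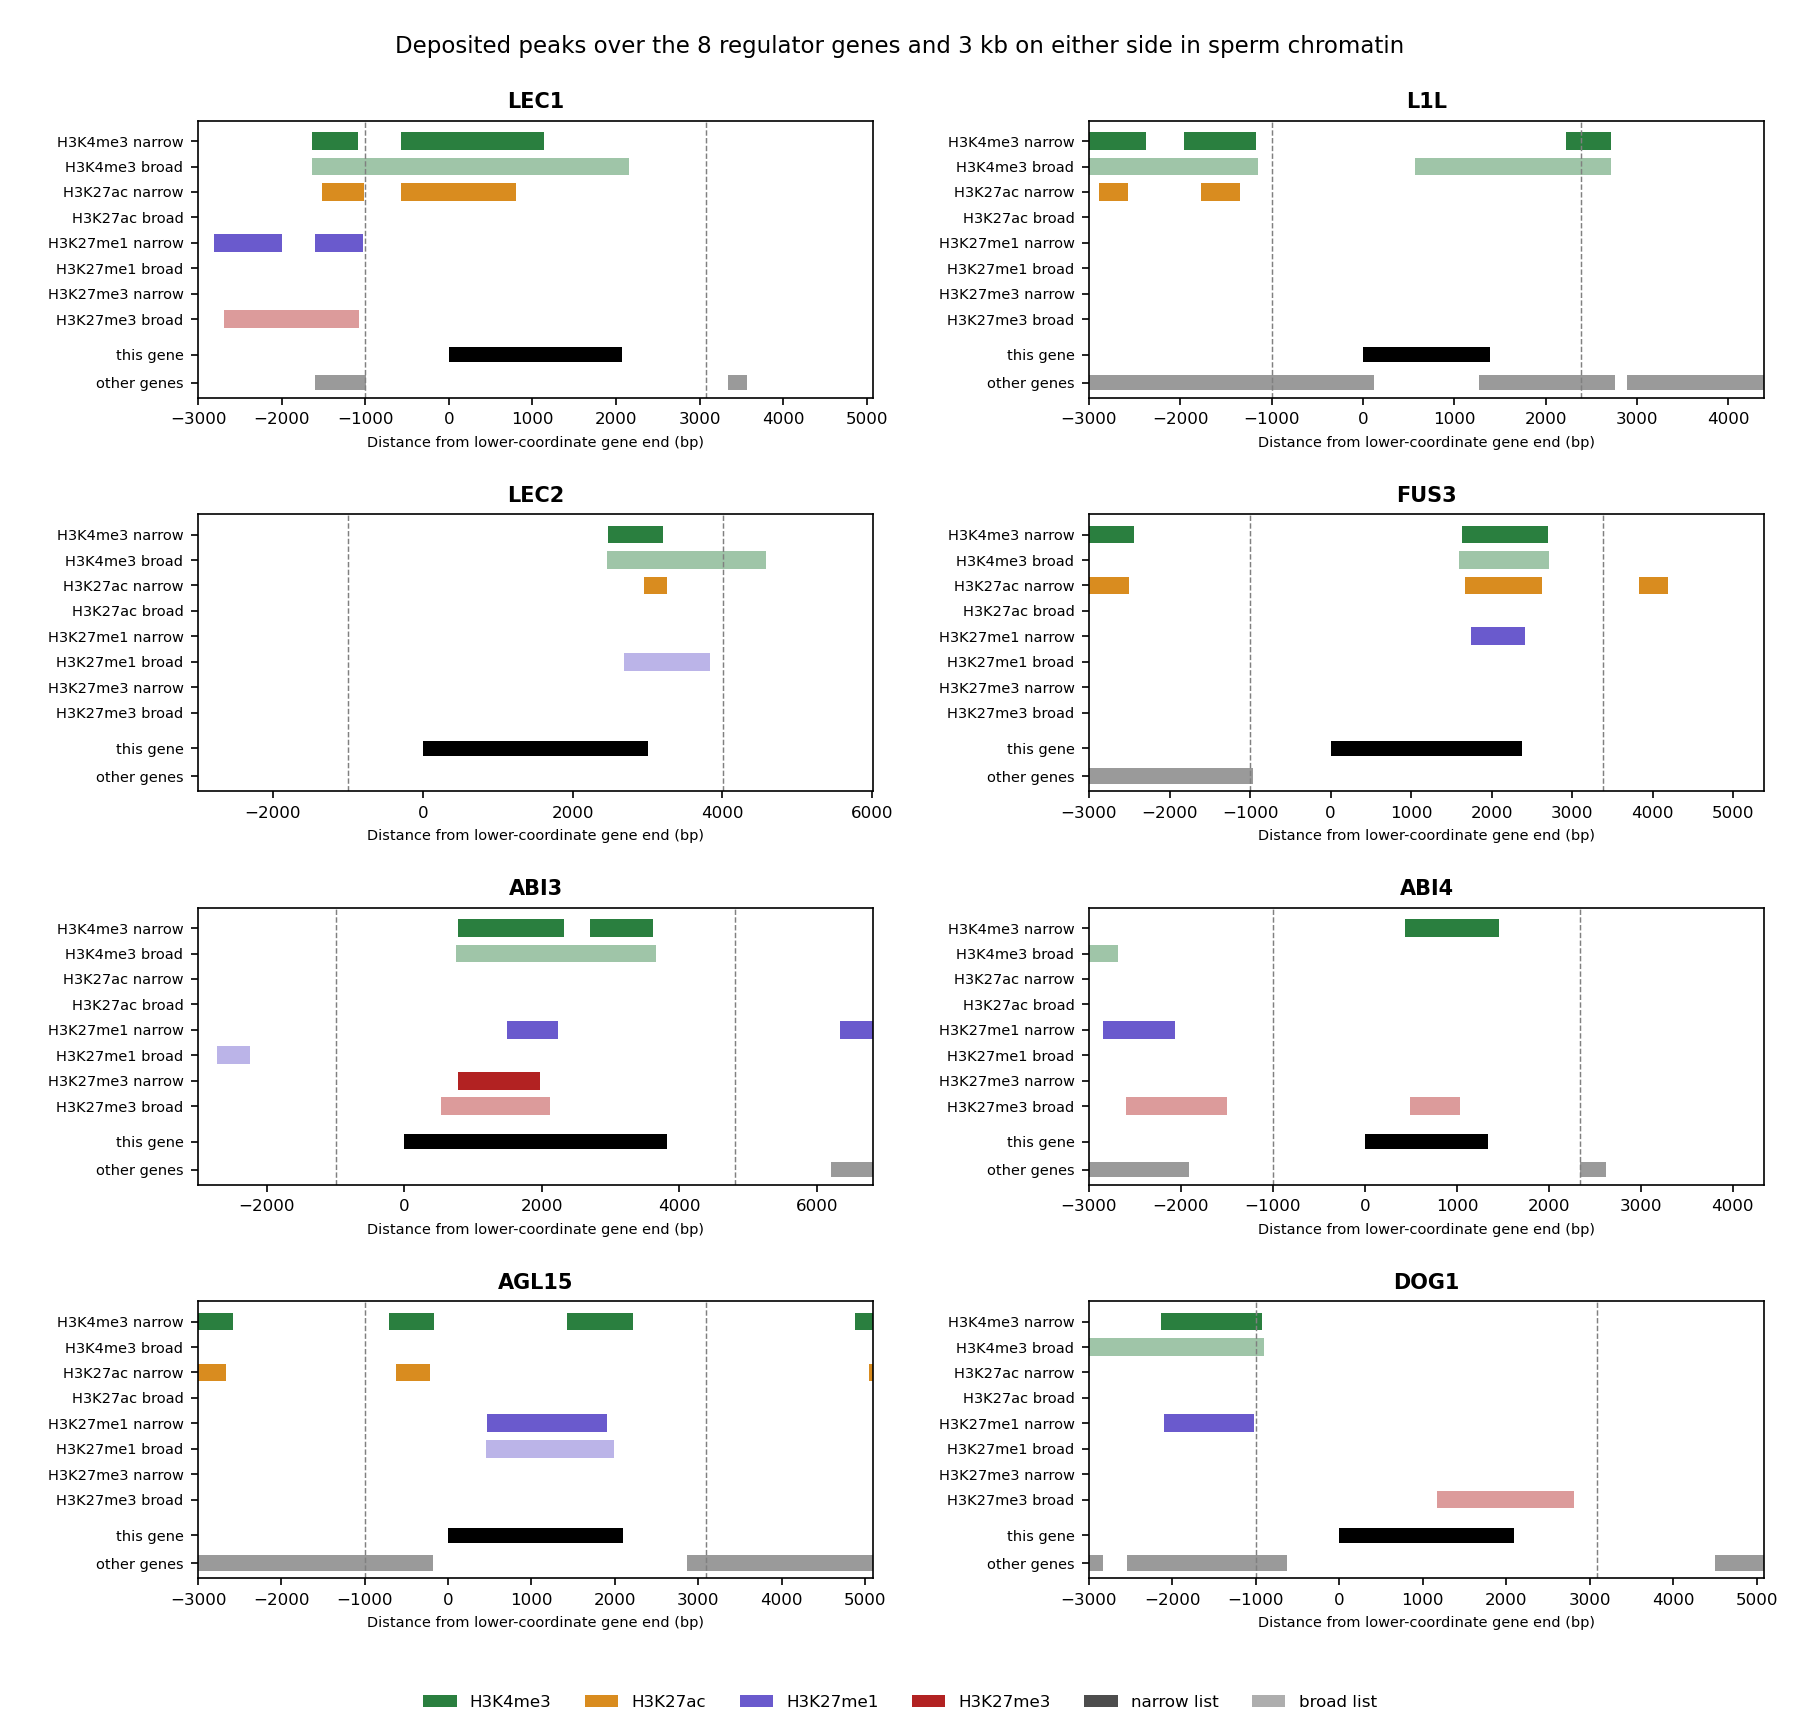
Peaks of the 8 deposited lists over each of the 8 genes and 3 kb on either side, by distance in bp from the gene end of lower coordinate. Solid bars are narrow peaks, pale bars broad peaks, the black bar is the gene named above the panel, grey bars are other annotated genes of any class, and dashed lines stand 1 kb outside the gene. H3K27me3 bars lie inside ABI3 and ABI4 and on DOG1, where the bar runs 727 bp past the gene end of higher coordinate, and the H3K4me3 peaks next to L1L and DOG1 in the narrow list lie in neighbouring genes.

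H3K27me3 lay on 3 of the 8 genes, ABI3, ABI4 and DOG1, against 5.24% of all protein-coding genes in the broad list. Since these genes were picked with earlier results on this mark known, the count is a description. In the narrow list 1 of the 8 was marked, ABI3, against 1.76% of all genes. All 3 genes were also marked when only the gene span was counted, where 4.03% of all genes were, and ABI3 also in the narrow list (1.48% of all genes).

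At ABI3, the B3 factor through which abscisic acid acts on seed genes, the narrow H3K27me3 peak on chromosome 3 from 8998151 to 8999345 lay wholly inside the gene. It had a fold of 4.51 over the control, near the median of 4.55 for the list, and a −log10 q of 5.15 against a median of 5.35. Folds and q values are the authors' own value for each peak. The peak was 1195 bp wide, wider than 93.5% of the narrow H3K27me3 peaks. The broad peak covered 1586 bp of the gene, which is 41.6% of its span. With 27.3% of its region under the broad peak, ABI3 stood above 98.5% of all genes.

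The H3K27me3 of ABI3 lay on the same bases as H3K4me3. Narrow H3K4me3 peaks covered 2462 bp of the gene and held 1188 of the 1195 bp of the narrow H3K27me3 peak (99.4%). There were 2 of them, at 8998158 to 8999696 with a fold of 2.66 and at 9000065 to 9000987 with a fold of 2.12, both below the list median of 3.70. The H3K4me3 summit nearer to the H3K27me3 summit was 1016 bp away from it, so the bases overlapped while the high points did not coincide. A narrow H3K27me1 peak of 752 bp, with a fold of 1.90, lay in the same part of the gene, 80 bp from that H3K4me3 summit, and shared 487 bp with H3K27me3. The lists cover pools of nuclei, so whether the marks sit on the same nucleosomes was not tested. The nearest H3K27ac peak was 3307 bp from the gene.

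At ABI4, which relays abscisic acid and sugar signals, the broad H3K27me3 peak on chromosome 2 from 16796741 to 16797281 was 541 bp wide and covered 40.4% of the gene. It lay wholly under the H3K4me3 peak of the gene (16796680 to 16797704, fold 3.43, −log10 q 54.3). That H3K4me3 peak covered 906 bp of the 1339 bp gene, with its summit 270 bp inside the end of higher coordinate. The narrow list had no H3K27me3 peak nearer than 19745 bp, and no H3K27ac peak lay within 3236 bp. In the broad list a further H3K27me3 peak lay outside the 1 kb flank of ABI4, partly over the neighbouring gene AGL48.

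At DOG1, the dormancy gene, the broad H3K27me3 peak on chromosome 5 from 18590593 to 18592233 covered 914 bp of the gene, or 43.8%, and reached 727 bp past its end of higher coordinate. It took 40.1% of the region, above 99.3% of all genes. No other mark reached the 150 bp minimum there. A narrow H3K4me3 peak entered the flank of DOG1 by 77 bp, but all of its 1219 bp lay in the neighbouring gene CIPK20 (AT5G45820), with its summit 1364 bp outside DOG1. The nearest H3K27ac peak was 5876 bp away, and in the narrow list the nearest H3K27me3 peak was 163893 bp away.

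The broad peaks at ABI3, ABI4 and DOG1 had folds of 1.47, 1.39 and 1.48 and −log10 q values of 0.581, 0.657 and 0.686. All 3 thus fall short of a q of 0.05, as do 1047 of the 1423 broad H3K27me3 peaks (73.6%). Over 457 broad H3K27me3 peaks that hold a narrow one, the fold in the broad list did not follow that in the narrow list (Spearman's rho −0.0468). It is therefore not known whether the fold and q listed for a broad peak describe its interval. ABI3 is the member whose H3K27me3 was called in both lists.

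None of the 3 members with H3K27me3 had H3K27ac, whereas 67.9% of all 1438 genes with H3K27me3 did. Of the 5 members without H3K27me3, 4 had H3K27ac, against 69.2% of all genes without it. Among these, the peak counted for AGL15 lay wholly in a neighbouring gene, and 63 bp of the LEC2 peak lay in LEC2. Inside the gene span 2 members had H3K27ac, LEC1 and FUS3, against 55.9% of all genes. H3K4me3 was found at 2 of the 3 members with H3K27me3, against 83.1% of all such genes. With 8 genes these are counts and no more.

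The other members lay at unlike distances from H3K27me3. In the broad list the nearest peak was 1081 bp from LEC1, just outside the flank and over the neighbouring gene AT1G21960. The distance was 6106 bp for FUS3, 12562 bp for LEC2, 75370 bp for L1L and 104799 bp for AGL15. In the narrow list it was between 12669 bp (LEC2) and 213800 bp (AGL15) for these 5 genes. LEC1 was thus the member next to a called H3K27me3 peak without carrying it.

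**Figure D2:**
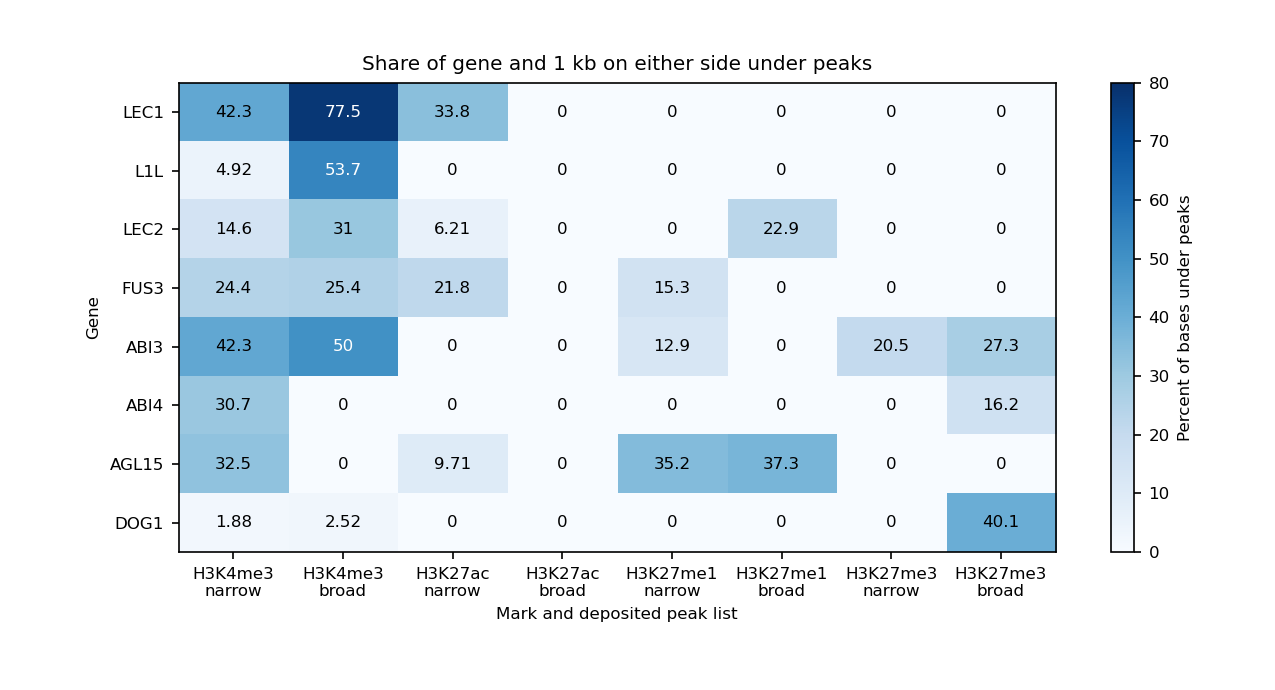
Percent of the gene and 1 kb on either side that lay under peaks, for each of the 8 genes (rows) and each mark in its narrow and broad list (columns). H3K27me3 values above 0 stand in the rows of ABI3, ABI4 and DOG1, and those same rows are at 0 for H3K27ac.

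H3K4me3 was found at 7 of the 8 genes in the narrow list, a share close to the 84.0% of all genes. The members differed in how much they carried and where it lay. Narrow peaks covered 42.3% of the region at LEC1 and at ABI3, 32.5% at AGL15, 30.7% at ABI4, 24.4% at FUS3, 14.6% at LEC2, 4.92% at L1L and 1.88% at DOG1. The median was 27.5%, against 23.6% over all genes. Inside the gene span itself 6 of the 8 were marked, all but L1L and DOG1, against 75.2% of all genes.

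LEC1, the NF-Y subunit that sets embryo identity, had the highest fold of the members. Its H3K4me3 peak on chromosome 1 from 7727000 to 7728720 was 1721 bp wide, with a fold of 5.00 and a −log10 q of 114.9. That fold exceeded 77.3% of the peaks in the list. It covered 1144 bp of the gene and 577 bp of the flank at lower coordinate, and its summit lay 409 bp inside the gene. In the broad list LEC1 was covered over its whole 2073 bp.

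Its closest relative L1L looked different. The narrow H3K4me3 peak counted for L1L (chromosome 5, 19317003 to 19317495, fold 2.89) lay wholly in the neighbouring gene TRM10 (AT5G47680) and had no base in L1L. The broad peak, at 19315349 to 19317496, did reach over 821 bp of L1L, or 59.0% of it, but lay for 1451 bp in TRM10, whose annotated span overlaps that of L1L. L1L had no H3K27ac, H3K27me1 or H3K27me3 in either list.

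Among the other B3 genes, FUS3 and LEC2 had H3K4me3 across the end of higher coordinate, while both ABI3 peaks lay wholly inside the gene. The FUS3 peak (chromosome 3, 9855457 to 9856524) had a fold of 3.72, at the list median, and covered 756 bp of the gene. The LEC2 peak (chromosome 1, 9899343 to 9900073) had a fold of 2.61, above 25.2% of the list, and covered 534 bp of the 3010 bp gene. The LEC2 summit was 157 bp inside that gene end, and the FUS3 summit 535 bp inside.

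AGL15 had 2 narrow H3K4me3 peaks. The peak of higher fold, 4.50, lay at 4448154 to 4448692 on chromosome 5, outside AGL15 and for 522 of its 539 bp in the neighbour AT5G13780. The other, at 4450292 to 4451085 with a fold of 3.29, covered 667 bp of AGL15 at its end of higher coordinate. In the broad list 5 of the 8 genes had H3K4me3 (LEC1, L1L, LEC2, FUS3 and ABI3), against 68.1% of all genes, and ABI4 and AGL15 were at 0 bp there despite their narrow peaks. Those 5 were also marked within the gene span, as 60.9% of all genes were.

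**Figure D3:**
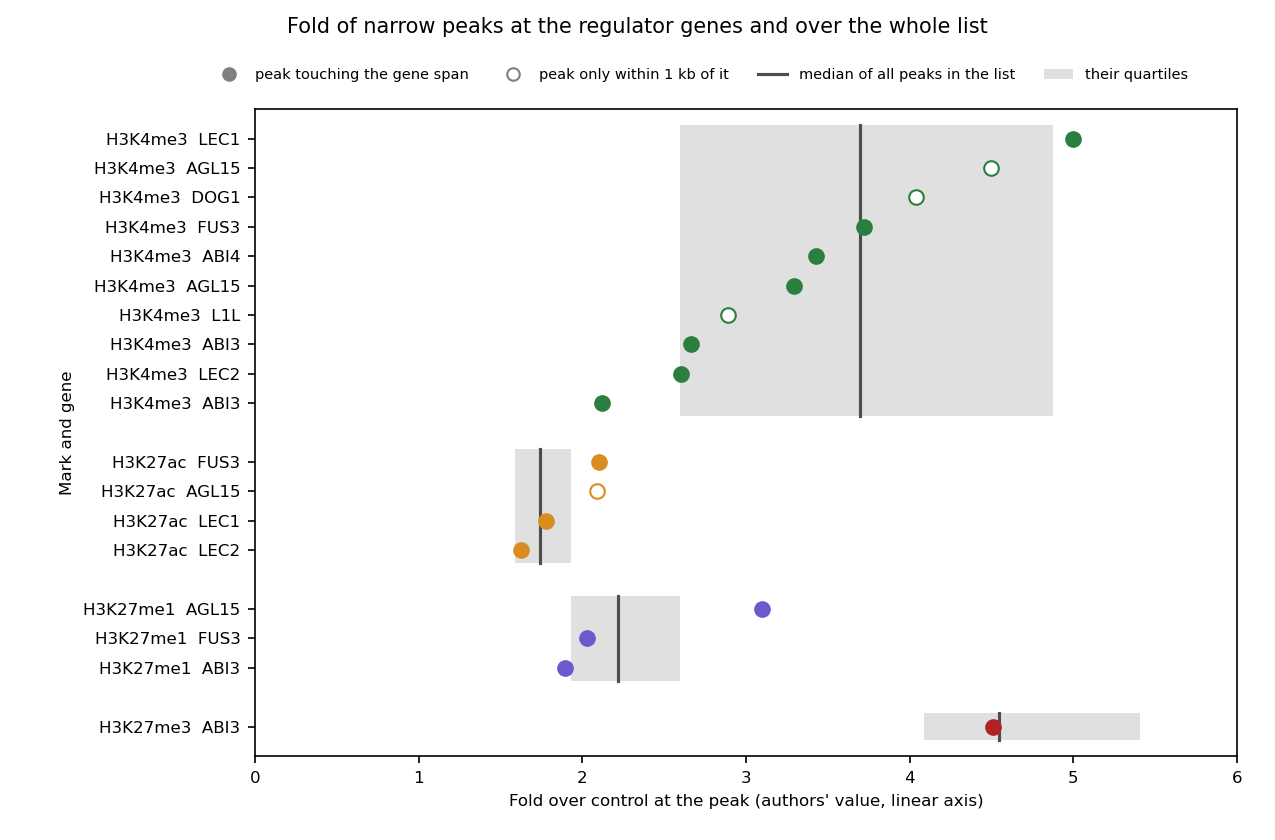
Fold over control of each narrow peak at the 8 genes, by mark, with the median (line) and quartiles (grey) of all peaks in the same list. Filled points touch the gene span and open points lie only within 1 kb of it. H3K4me3 folds run between 2.12 and 5.00 around the list median of 3.70, and the AGL15 point for H3K27me1, at 3.1, stands above its quartiles.

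H3K27ac was found at 4 of the 8 genes (LEC1, LEC2, FUS3 and AGL15), against 69.1% of all genes. Inside the gene span 2 of the 8 were left, LEC1 and FUS3, against 55.9% of all genes. The median share of the region covered was 3.1% for the 8 genes and 11.1% for all genes.

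FUS3 had the highest H3K27ac fold, 2.1, above 90.1% of the list, in a peak of 957 bp at 9855504 to 9856460 on chromosome 3. It lay wholly under the H3K4me3 peak, and the summits of both marks were 6 bp apart. At LEC1 a peak of 1375 bp with a fold of 1.78 began at the same base as the H3K4me3 peak, 7727000, and its summit lay 379 bp outside the gene, 788 bp from the H3K4me3 summit. It was wider than 96.7% of the H3K27ac peaks. At LEC2 the peak was 311 bp wide with a fold of 1.63, and 63 bp of it lay in the gene.

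The H3K27ac counted for AGL15 (fold 2.09) lay wholly in AT5G13780, 222 bp from AGL15 and 18 bp, summit to summit, from the H3K4me3 peak in that neighbour. ABI3, ABI4, L1L and DOG1 had no base under H3K27ac. The broad H3K27ac list has 163 peaks, marked 0 of the 8 genes with or without the flanks, and marked 0.736% of all genes with them and 0.557% without.

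H3K27me1 was found at 2 of the 8 genes in the broad list, LEC2 and AGL15, against 12.6% of all genes. In the narrow list it was 3 of the 8, FUS3, ABI3 and AGL15, against 38.6% of all genes. Counted over the gene span the same members were marked, 2 in the broad list against 8.79% of all genes and 3 in the narrow list against 26.9%. AGL15 was the member marked in both lists.

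At AGL15 the narrow H3K27me1 peak on chromosome 5 from 4449328 to 4450771 covered 68.9% of the gene, with a fold of 3.1, above 94.3% of the list, and a −log10 q of 21.9. The broad peak covered 1530 bp, or 73.0% of the gene. The mark stayed inside the gene, and its bases were shared for 480 bp with H3K4me3 and not with H3K27ac. At FUS3 the narrow peak had a fold of 2.03 and lay wholly under both active marks. At LEC2 the broad peak on chromosome 1 from 9899558 to 9900702 lay for 826 of its 1145 bp in the flank of higher coordinate and over no other annotated gene, and the nearest narrow H3K27me1 peak was 3412 bp away.

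Likeness of pattern was measured as the Euclidean distance between the covered shares of the region in the 8 lists, each from 0 to 1. Among the members LEC2 and FUS3 were closest (0.336) and LEC1 and DOG1 farthest apart (1.00). The distance was 0.557 between LEC1 and L1L, and 0.579 between ABI3 and ABI4. Over all protein-coding genes, the genes closest to ABI3 were VGDH1 (AT2G47030; 0.151) and CYP71B21 (AT3G26190; 0.170), both with H3K27me3 in both lists. Those closest to ABI4 were AT2G36030 (0.0146) and LSH6 (AT1G07090; 0.0309), and those closest to DOG1 were RR23 (AT5G62120; 0.0399) and AT1G65500 (0.0430). For LEC1 they were AT1G18540 (0.0312) and AT4G38810 (0.0314), for L1L AT5G20430 (0.0132) and AT3G20590 (0.0241), and for FUS3 AT4G17713 (0.0185) and AT5G65130 (0.0309). For LEC2 they were AT2G29510 (0.0788) and NEF1 (AT5G13390; 0.0807), and for AGL15 AT1G61095 (0.0405) and AT2G41360 (0.0802). No other member was among the nearest genes of any member.

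A list of 16 relatives, the other NF-YB genes, the VAL genes, AGL18 and the 4 loci AT4G18650, AT4G18660, AT4G18680 and AT4G18690, was examined in the same way. Folds given for these genes, and for the gene lists below, are the highest of any peak touching the gene or its 1 kb flanks. Such a value can belong to a peak in a neighbouring gene. H3K27me3 lay on 4 of the 16 in the broad list, NF-YB7, AT4G18660, AT4G18680 and AT4G18690, against 5.24% of all genes, and the last pair lay under a common broad peak. NF-YB7 had less than 150 bp of it inside the gene, which left 3 of the 16 by gene span, against 4.03% of all genes. In the narrow list 2 of the 16 had it, AT4G18680 with a fold of 4.92 and AT4G18690 with 4.89, against 1.76% of all genes. None of the 3 VAL genes had H3K27me3. VAL1 (AT2G30470, also HSI2) had an H3K4me3 fold of 6.55 and an H3K27ac fold of 2.16, and VAL2 (AT4G32010, also HSL1) had 3.92 and 1.65. VAL3 (AT4G21550) had H3K4me3 at 2.08 and no H3K27ac. AGL18 (AT3G57390), the closest relative of AGL15, had both active marks, with folds of 4.93 and 1.91.

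Of 21 regulators and partners of the seed programme, 19 had H3K4me3 (90.5%, against 84.0% of all genes) and 16 had H3K27ac (76.2%, against 69.1%). H3K27me1 lay on 1 of them in the broad list (4.76%, against 12.6% of all genes) and on 3 in the narrow list (14.3%, against 38.6%). H3K27me3 lay on 2 (9.52%, against 5.24% of all genes). The remodeller gene PKL (AT2G25170) had folds of 5.74 for H3K4me3 and 1.80 for H3K27ac. BBM (AT5G17430), the AP2 factor that can start embryos from somatic cells, had 6.92 and 2.40 and no H3K27me3. BZIP10 (AT4G02640, also BZO2H1) and BZIP25 (AT3G54620), bZIP partners of ABI3, had H3K4me3 folds of 7.60 and 5.70. ABI5 (AT2G36270), the bZIP factor of germination arrest, had 3.67, with less than 150 bp of H3K4me3 in the gene. In the narrow list H3K27me1 covered 2573 bp of ABI5 and its flanks in total, with a highest fold of 3.24. Of the DOG1-binding phosphatases, AHG3 (AT3G11410, also PP2CA) had 7.40 and AHG1 (AT5G51760) had 4.38. H3K27me3 lay at the locus AT4G11040 over 418 bp and at GA2OX6 (AT1G02400) over 467 bp in the broad list, and at neither in the narrow list. At GA2OX6 less than 150 bp of it lay inside the gene.

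Of 16 target genes of the seed programme, 7 had H3K27me3 in the broad list, against 5.24% of all genes. They were CRA1, CRU3 and SESA1 to SESA5, of which SESA1 to SESA4 lay under a common broad peak. CRA1 and CRU3 encode cruciferins and the SESA genes 2S albumins, both storage proteins of the seed. In the narrow list 4 of the 16 had the mark, against 1.76% of all genes. The folds were 4.92 at CRA1, 4.64 at SESA2, 4.26 at SESA3 and 4.10 at CRU3. The 4 oleosin genes OLEO1 to OLEO4, the late-embryogenesis genes EM1 and EM6 (also GEA6) and the dehydrin gene RAB18 had none in either list. Nor did every storage protein gene carry it. A further cruciferin gene, CRB (AT1G03880, also CRU2), and the locus AT1G03890 had none in either list. H3K4me3 lay on 13 of the 16 targets, against 84.0% of all genes, and H3K27ac on 10, against 69.1%. By gene span 12 and 5 were left, against 75.2% and 55.9% of all genes. H3K27me3 was thus called on both some regulators and some of their targets. In the broad list the shares were 37.5% of the 8 regulators, 25% of the relatives and 9.52% of the regulators and partners. The share of the targets was 43.8%, against 5.24% of all genes. In the narrow list the shares were, in the same order, 12.5%, 12.5%, 0% and 25%, against 1.76% of all genes.

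**Figure D4:**
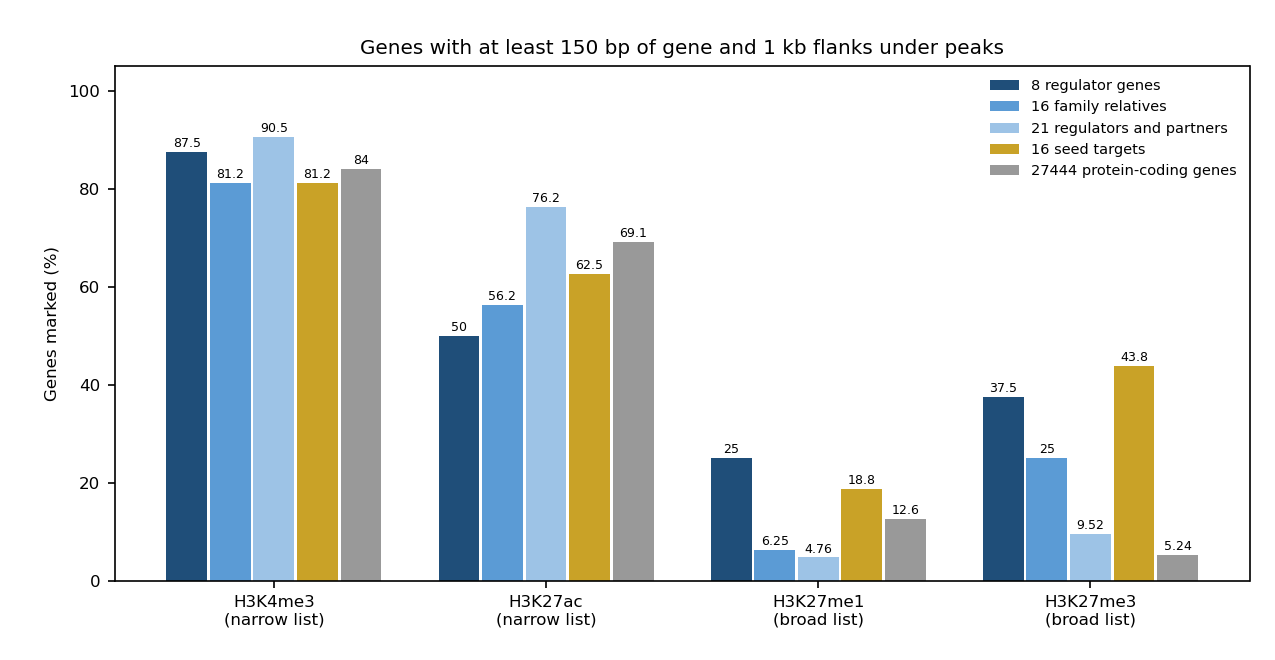
Percent of genes with at least 150 bp of gene and 1 kb flanks under peaks, by mark, for the 8 regulator genes, 16 family relatives, 21 regulators and partners, 16 seed targets and all 27444 protein-coding genes. The H3K4me3 shares lie between 81.2% and 90.5%, while the H3K27me3 shares run between 43.8% for seed targets and 5.24% for all genes.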

How the data were processed

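Per the submitters' processing notes, the tools were MACS2 2.1.0, Bowtie2 2.1.0, Trim Galore 0.4.1, deepTools 2.5.0.1, SAMtools 1.3, bedtools and Picard, on TAIR10. How they were set is not given in the sources used here. Each deposited list gives a peak's fold, the ratio of immunoprecipitation to control, and its −log10 q (a q-value, not a replicate test). Summit offsets stand in the deposited narrow lists.

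Peak starts were set to count from 1. Gene spans came from a table of TAIR10.1, whose frame was checked. H3K4me3 summits were moved along the genome in 250 bp steps, to 5000 bp at most, and their share inside genes was highest at 0 bp on all 5 chromosomes (88.7 to 91.0%) and in the 2 Mb around each of the 8 genes. Gene coordinates are not printed. The overlap computation was tested on 500 simulated regions. Python 3.11.15, numpy 2.4.6, pandas 2.3.3, scipy 1.17.1 and matplotlib 3.10.9 were used.

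Members, gene lists and minimum overlap were chosen with earlier results of these data known. Named genes were all members, list genes led by those with H3K27me3, and the 2 genes nearest to each member. Pooled lists allow no replicate test, and none was made. Alternatives varied list, flank, overlap and q.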

Additional observations from a re-analysis of the deposited data

How the results depend on the processing

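With 8 genes and 1 pooled list per mark, a single gene moves a count. H3K4me3 was found at 7 genes and at 5 to 8 under the 9 alternatives, where L1L dropped out with the gene span, a 500 bp flank or 500 bp of overlap, and DOG1 came in with a 2 kb flank or 1 bp of overlap. H3K27ac was found at 4 genes, at 5 with a 2 kb flank (L1L added), at 2 with the gene span only or with 500 bp of overlap, and at 0 in the broad list in all 3 of its versions. H3K27me1 was found at 2 genes and at 1 (LEC2) when broad peaks needed a −log10 q of 5 or more. AGL15 dropped out there with a broad-list value of 3.59, while its narrow peak had 21.9. For H3K27me1 too, the fold in the broad list did not rise with that in the narrow list (Spearman's rho −0.151 over 1795 broad peaks). Whether the q of a broad H3K27me1 peak describes its interval is thus not known. H3K27me3 was found at 3 genes, at 1 (ABI3) in the narrow list in all 3 of its versions, and at 0 with that q minimum on the broad list, a selection by a q whose link to the interval is not known. A 2 kb flank gave 4, with LEC1 added. Combining the other list with the q minimum or with the gene span was chosen after seeing the data. No paired analysis was possible because each list pools the replicates of its mark, and for the same reason no replicate could be left out.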
